A study of Mus musculus with 14 samples.

Results

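The unfolded protein response genes described here are 10 genes chosen by symbol for their known role in the pathway, with earlier results of these data known, and the rule itself uses no measured value: Hspa5, Ddit3, Atf4, Xbp1, Eif2ak3, Hsp90b1, Pdia4, Trib3, Chac1 and Asns. All 10 were found among the 51211 gene symbols of both tables, and all 10 passed the filter on low values in both. RNA was measured in whole olfactory epithelia of 14 individual mice at postnatal day 5, in 2 experiments. The first compared 3 Kir2.1 mice (OMP-IRES-tTA combined with tetO-Kir2.1-IRES-tauLacZ) with 3 control mice that carried OMP-IRES-tTA alone as heterozygotes, so that mice of both groups carried the tTA allele. Kir2.1 is an inwardly rectifying potassium channel that silences neurons. It is driven here through the Omp locus, which is active in mature olfactory sensory neurons, so the transgene marks these neurons and not the supporting, basal and gland cells around them. The paper states that Kir2.1 silences vomeronasal neurons as well. The labels call this group Kir2.1-Off, a name that the study's methods use for mice silenced early and tested as adults. The second experiment compared 4 wild type mice exposed to 2-phenylethylamine (PEA), an aversive odor, from postnatal day 0 to 5 with 4 unexposed wild type mice. The labels name C57BL/6 as the strain background of all 14 mice, whereas the methods name CD-1 pups for the odor exposure.

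The unfolded protein response is the program by which a cell answers misfolded protein in the endoplasmic reticulum (ER). Its sensors are the kinase PERK (encoded by Eif2ak3), IRE1 and ATF6, which are held inactive by the chaperone BiP (encoded by Hspa5) and slow translation, splice Xbp1 mRNA and induce chaperones when BiP is drawn away. In olfactory sensory neurons the PERK arm is also known from development: the onset of odorant receptor expression activates PERK, the translation of the transcription factor ATF5 follows, and the neuron matures. Much of this regulation acts on phosphorylation, splicing and translation, which the amount of an mRNA does not show.

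Promoter windows are printed for the members in which a known response element was found, because they show the letters through which separate arms of the response are known to act, in a pair of chaperone genes and a pair of ATF4 target genes. For all 10 members the 250 bases before the RefSeq start site (GRCm38.p6, strand of the gene) were searched on both strands. The ER stress element, the sequence bound by ATF6 together with NF-Y (CCAAT, then any 9 bases, then CCACG), was found in the windows of Hspa5 and Hsp90b1, and in 37 of all 32851 windows of this length (0.113%). The ATF4 element, here the letters TGATGNAA, was found in the windows of Chac1 and Asns, and in 1134 of all windows (3.45%). The letters TGACGTGG, the core of the unfolded protein response element, were in none of the 10 members' windows and in 185 of all windows (0.563%). CCAAT alone, which is also the first part of the ER stress element, was in 7 of 10 members' windows and in 33.8% of all windows. Capitals mark the ER stress element in the first pair of sequences and the ATF4 element in the second pair.
Hspa5 (chr2:34771840-34772089, plus strand): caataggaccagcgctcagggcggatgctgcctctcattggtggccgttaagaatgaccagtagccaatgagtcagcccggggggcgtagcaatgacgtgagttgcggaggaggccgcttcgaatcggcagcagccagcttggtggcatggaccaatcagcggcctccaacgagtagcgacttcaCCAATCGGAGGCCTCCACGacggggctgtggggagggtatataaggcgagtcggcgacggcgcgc
Hsp90b1 (chr10:86705445-86705694, minus strand): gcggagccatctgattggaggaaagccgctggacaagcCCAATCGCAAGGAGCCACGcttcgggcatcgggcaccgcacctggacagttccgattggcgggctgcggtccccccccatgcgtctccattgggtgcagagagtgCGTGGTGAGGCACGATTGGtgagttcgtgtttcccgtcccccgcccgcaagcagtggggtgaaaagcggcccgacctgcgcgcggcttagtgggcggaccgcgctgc
Chac1 (chr2:119350992-119351241, plus strand): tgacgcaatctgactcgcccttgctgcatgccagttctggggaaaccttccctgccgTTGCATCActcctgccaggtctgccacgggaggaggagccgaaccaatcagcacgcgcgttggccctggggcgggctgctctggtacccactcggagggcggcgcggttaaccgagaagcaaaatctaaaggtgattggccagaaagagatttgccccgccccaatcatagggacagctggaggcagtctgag
Asns (chr6:7693210-7693459, minus strand): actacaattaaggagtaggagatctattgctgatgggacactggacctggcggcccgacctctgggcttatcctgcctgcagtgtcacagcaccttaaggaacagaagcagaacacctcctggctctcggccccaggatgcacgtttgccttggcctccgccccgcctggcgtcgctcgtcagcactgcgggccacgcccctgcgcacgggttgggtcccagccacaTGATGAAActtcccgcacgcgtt
The element of Hspa5 lay 65 to 47 bases before the start, on the strand of the gene. Hsp90b1 had an element 212 to 194 bases before the start on the strand of the gene, and another 107 to 89 bases before it on the opposite strand. The ATF4 element of Asns lay 23 to 16 bases before the start, and that of Chac1 lay 193 to 186 bases before it on the opposite strand. These are matches of letters, not tests of binding. In GENCODE vM21 the longest gene models of Hspa5, Hsp90b1, Asns and Chac1 start inside the RefSeq windows.

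The deposited values are gene-level estimates that the authors scaled by size factors within each experiment, and they are called normalized counts here. They summed to between 33049111 and 34198478 per mouse in the Kir2.1 experiment and between 11476120 and 12467331 in the PEA experiment. These sums follow the normalization, so the depth of the libraries is not known. Kcnj2, the gene of the channel, lay at 986, 1074 and 1274 in the controls and at 17926, 18530 and 24193 in the Kir2.1 mice. Mature sensory neuron markers were present in every mouse of both experiments, as the label of the tissue requires. Vomeronasal receptor genes, which mark a neighbouring sense organ, stood apart in some libraries. Their mean log2 value was 6.06 in Kir2.1 control 1 against 2.35 to 2.45 in the other 5 mice, and 5.77, 4.68 and 3.91 in PEA controls 1 to 3 and 5.33 in exposed mouse 1 against 1.38 to 1.66 in the other 4.

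Hsp90b1 and Hspa5, chaperones of the ER, were the most abundant members per length of RNA. In the control mice of the Kir2.1 experiment, Hsp90b1, which encodes the ER form of HSP90, had 4675 ± 132 normalized counts per kilobase of exon (mean ± SD, n = 3). Hspa5 followed with 4187 ± 562 per kilobase, and the ranges of these genes overlapped. Atf4 had 2518 ± 72.6 per kilobase, below both chaperones and above Pdia4 (1468 ± 120), Xbp1 (1158 ± 74.6) and Ddit3 (754 ± 17.5), with no overlap between neighbours in this order. The place of Ddit3 in the order is uncertain, because its symbol has more than 1 gene model and the length of the longer was used. Trib3 (538 ± 38.9) and Asns (531 ± 134) overlapped, Eif2ak3 lay at 243 ± 29.3, and Chac1 was lowest at 138 ± 11.3 per kilobase. The order at the ends was the same in the PEA controls, where Hsp90b1 had 2667 ± 423 and Hspa5 2144 ± 519 per kilobase (n = 4) and Chac1 had 12.2 ± 2.29. Between them, Pdia4 (912 ± 129), Atf4 (880 ± 218) and Xbp1 (776 ± 195) overlapped in range, and Eif2ak3 (103 ± 15.6) overlapped Ddit3 (102 ± 11.4). With the longest annotated transcript as the length, Xbp1 stood above Pdia4 in both control groups. Atf5 is no member and is given for its place downstream of PERK: it lay at 27874 ± 991 per kilobase in the controls of the Kir2.1 experiment, above every member, and at 980 ± 161 in the PEA controls, within the range of Pdia4 and Atf4. Atf5 is overlapped on the other strand by Nup62 and Il4i1, whose reads are harder to separate in the unstranded Kir2.1 libraries. The part of these neighbours in the value of Atf5 was not tested.

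Silencing of mature neurons by Kir2.1 went with no detected change of a member. By limma, run on log2(normalized count + 1) and adjusted over 19807 genes after Benjamini and Hochberg, 0 of 10 members passed an adjusted p of 0.05 (70 of all genes tested passed, 0.353%). At an unadjusted p under 0.05 the count was also 0 of 10, against 11.1% of all genes, and in 0 of 10 did the 2 groups separate without overlap, against 16.3% of all genes. The median log2 fold change (log2 change in what follows) of the members was -0.02, and that of all genes tested was 0.01. The 95% intervals of 9 of the 10 members lay between log2 fold changes of -0.5 and 0.5, and the outermost bounds were -0.56 for Chac1 and 0.49 for Asns, which are 0.680-fold and 1.40-fold. Fold changes on this scale understate the change of genes with low values, and bulk tissue cannot tell fewer cells of a type from less RNA per cell. In both experiments the paper's DESeq2 test called more genes at an adjusted p of 0.05 than limma did here. A count of 0 by limma thus does not show that the paper's test would also call none.

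The sensor and the transcription factors differed little. Eif2ak3, the PERK kinase, lay at 1302, 1435 and 1653 normalized counts in the controls and at 1467, 1315 and 1378 in the Kir2.1 mice, so that all Kir2.1 values fell inside the control range. Xbp1, the factor of the IRE1 arm, lay at 3739, 4012 and 3529 in the controls and at 4273, 4146 and 3872 in the Kir2.1 mice (log2 change 0.12, SE 0.08, adjusted p = 0.633 by limma). The Kir2.1 mice were at the higher end, with overlap through 1 mouse of each group. Atf4, the factor whose translation rises when eIF2alpha is phosphorylated, lay at 6030, 6044 and 5741 in the controls and at 5731, 5859 and 5772 in the Kir2.1 mice (log2 change -0.04, SE 0.06, adjusted p = 0.890). The coefficients of variation of Atf4 were 2.88% and 1.13%, and the groups overlapped. Ddit3, which encodes the pro-apoptotic factor CHOP, lay at 1264, 1324 and 1285 in the controls and at 1141, 1131 and 1289 in the Kir2.1 mice. Kir2.1 mice 1 and 2 were below every control and Kir2.1 mouse 3 was inside the control range (log2 change -0.12, SE 0.08, adjusted p = 0.663).

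**Figure D1:**
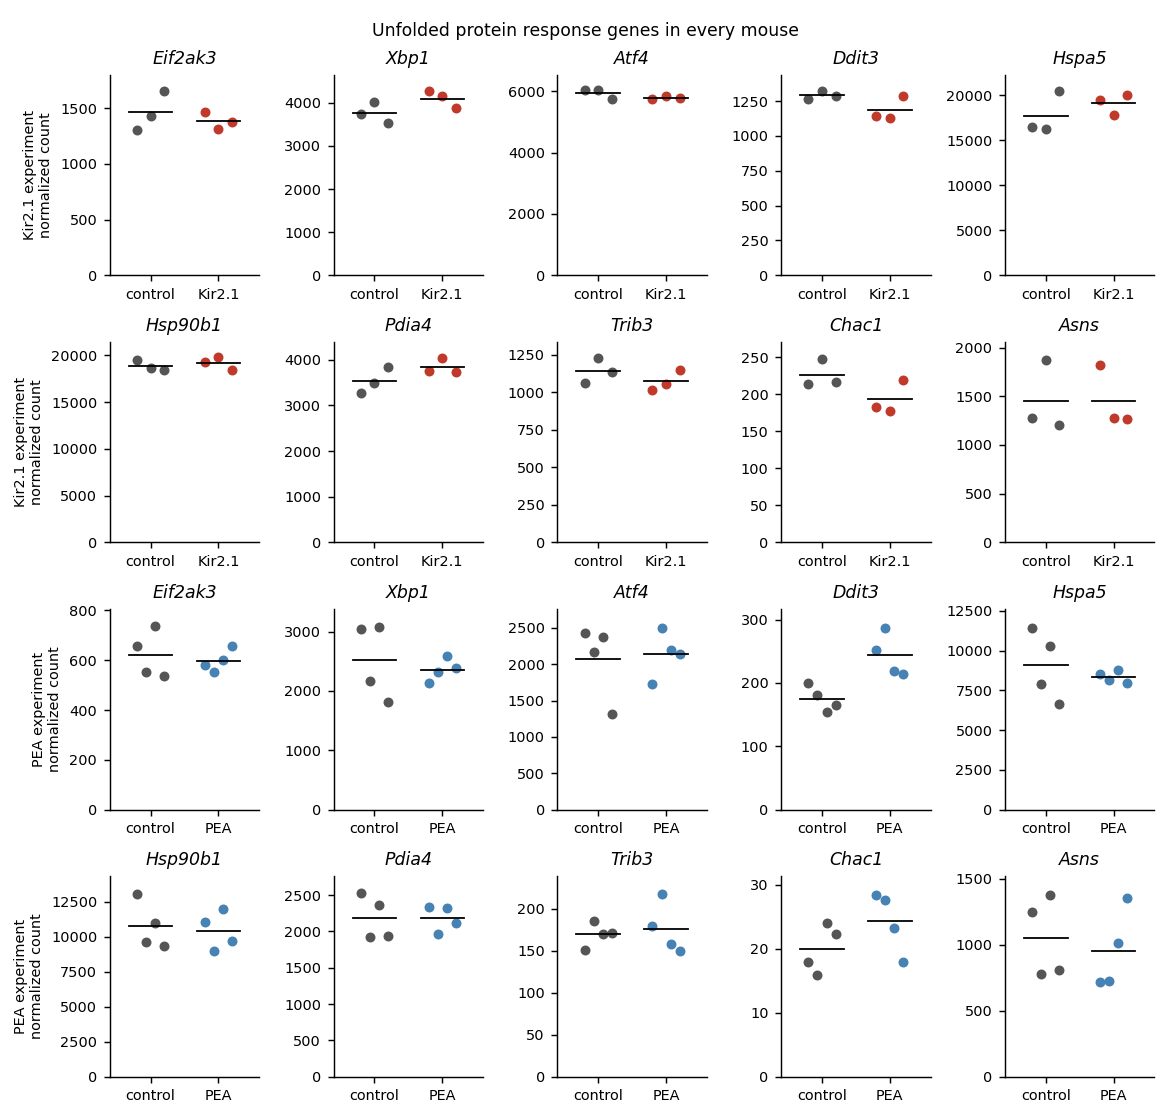
Normalized counts of the 10 members in every mouse, in 1 panel per gene with a linear axis from 0, for the Kir2.1 experiment (upper 2 rows, 3 mice per group) and the PEA experiment (lower 2 rows, 4 mice per group); points are mice, horizontal lines are group means, and heights are not comparable between the experiments, which were normalized separately. Ddit3 in the PEA experiment is the panel in which the groups do not overlap, with controls at 154 to 199 and exposed mice at 214 to 287.

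The chaperones likewise overlapped between Kir2.1 and control mice. Hspa5 lay at 16441, 16233 and 20451 normalized counts in the controls and at 19475, 17871 and 19991 in the Kir2.1 mice (log2 change 0.12, SE 0.11, adjusted p = 0.772 by limma). Control 3 held the highest value of all 6 mice, and without it the log2 fold change was 0.22 (unadjusted p = 0.0321, adjusted p = 0.366 by limma). Hsp90b1 lay at 19452, 18658 and 18442 in the controls and at 19271, 19796 and 18461 in the Kir2.1 mice (log2 change 0.02, SE 0.06). Pdia4, an ER disulfide isomerase, lay at 3260, 3479 and 3830 in the controls and at 3746, 4029 and 3737 in the Kir2.1 mice (log2 change 0.13, SE 0.08, adjusted p = 0.655).

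The targets of ATF4 and CHOP did not separate the groups either. Trib3, a pseudokinase that restrains ATF4 and AKT signaling, lay at 1064, 1229 and 1136 in the controls and at 1018, 1058 and 1148 in the Kir2.1 mice (log2 change -0.09, SE 0.09). Chac1, an enzyme that degrades glutathione, lay at 214, 247 and 217 in the controls and at 183, 177 and 219 in the Kir2.1 mice, and had the log2 fold change farthest from 0 among the members in this experiment (-0.23, SE 0.14, adjusted p = 0.631). As for Ddit3, Kir2.1 mice 1 and 2 were below every control, and mouse 3 was not. Asns, which makes asparagine, lay at 1277, 1874 and 1210 in the controls and at 1817, 1273 and 1266 in the Kir2.1 mice. A single high mouse in each group gave it the widest spread, with coefficients of variation of 25.2% and 21.8%, and a log2 change of 0.01 (SE 0.21). Atf5 lay at 54402, 57833 and 54424 in the controls and at 45448, 45831 and 56824 in the Kir2.1 mice (log2 change -0.18, SE 0.10, adjusted p = 0.615), again with Kir2.1 mice 1 and 2 below every control.

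Markers of some cell types differed in the Kir2.1 experiment, where no change of a member was detected. All 10 mature sensory neuron markers were lower at an unadjusted p under 0.05, and Omp passed the adjusted test (adjusted p = 0.0466 by limma). The summed level of these markers was 133835 to 148726 in the controls and 98674 to 111379 in the Kir2.1 mice, with -0.40 as the median log2 change of the list. Of 6 erythroid markers tested, 5 were higher at an unadjusted p under 0.05, with sums of 11074 to 20036 in the controls and 20323 to 33743 in the Kir2.1 mice. Of 9 bone and cartilage markers tested, 3 were higher, with sums of 54599 to 173640 and 106458 to 147604. The bone and cartilage sums of the Kir2.1 mice thus lay inside the control range. Of 6 vomeronasal neuron markers tested, 2 were lower and all 6 estimates were below 0 (median log2 change -1.25). This list summed to 11926 to 12567 in the controls and 9200 to 11892 in the Kir2.1 mice. The vomeronasal receptors were high in control 1, with a mean log2 value of 6.06 against 2.43 in controls 2 and 3. The sum of control 1 (12304) nevertheless lay between those of controls 2 and 3. The sums of this list thus do not measure how much vomeronasal tissue a library held. By the paper, Kir2.1 also silences vomeronasal neurons, and the part of this in the vomeronasal markers was not tested. Of 7 ciliated cell markers 1 was higher, and of 5 neutrophil markers tested 1 was lower. Immature neuron (7 genes), globose basal (6), horizontal basal (5), sustentacular (7), secretory gland (10) and macrophage (7) markers had 0 genes at an unadjusted p under 0.05. The share of all genes at an unadjusted p under 0.05 was 11.1%, and 9659 of all 19807 estimates were below 0. The part of these differences in the members' values was not tested.

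PEA exposure separated 1 member by mouse, Ddit3, which did not pass adjustment. By the same test over 17322 genes, 0 of 10 members passed an adjusted p of 0.05 (31 of all genes tested passed, 0.179%). At an unadjusted p under 0.05 the count was 1 of 10, against 15.0% of all genes. The groups separated without overlap in 1 of 10, against 9.32% of all genes, so that both shares were near the background. The median log2 fold change of the members was -0.02, as for all genes tested (-0.02). The 95% intervals of 6 of the 10 members lay between log2 fold changes of -0.5 and 0.5 and those of all 10 between -1 and 1, with outermost bounds of -0.70 for Asns and 0.85 for Chac1, which are 0.617-fold and 1.80-fold.

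Ddit3 lay at 199, 181, 154 and 165 normalized counts in PEA controls 1 to 4 and at 253, 287, 219 and 214 in exposed mice 1 to 4. Every exposed mouse was above every control, the means were 175 ± 19.5 and 243 ± 33.6 (SD, n = 4 each), and the exact permutation test gave p = 0.0286, the smallest value that 4 against 4 mice allow. The log2 fold change was 0.47 (SE 0.14, 95% interval 0.16 to 0.78), with an unadjusted p of 0.00659 and an adjusted p of 0.172 by limma, and this p ranked at 664 among the 17322 genes tested. Over 21 other ways of processing the values, the log2 fold change stayed between 0.39 and 0.54 and the adjusted p between 0.153 and 0.369. The unadjusted p reached 0.0732 without the 4 libraries with high vomeronasal RNA, which leaves 1 control. Ddit3 (ENSMUSG00000025408; GRCm38 chr10:127290774-127296288, plus strand) has a second, overlapping gene identifier under the same symbol in GENCODE vM21. Which of these the single row of the tables holds is not known, so the position and the length behind its values per kilobase are those of the longer model. It is also overlapped on the other strand by the methionyl-tRNA synthetase gene, listed as Mars1. The PEA libraries are described as stranded and the Kir2.1 libraries as unstranded, so that reads of these neighbours are harder to separate in the latter. The difference between the Ddit3 results of the 2 experiments was not tested. Litters and cages of the mice are not known, and the p-values for Ddit3 treat mice as independent.

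The sensor and the other transcription factors overlapped between exposed and control mice. Eif2ak3 lay at 658, 553, 737 and 537 in the controls and at 580, 551, 599 and 656 in the exposed mice (log2 change -0.05, SE 0.12, adjusted p = 0.888 by limma). Xbp1 lay at 3040, 2166, 3068 and 1810 in the controls and at 2130, 2314, 2588 and 2388 in the exposed mice (log2 change -0.07, SE 0.17). Atf4 lay at 2436, 2167, 2376 and 1323 in the controls and at 1727, 2500, 2194 and 2138 in the exposed mice (log2 change 0.07, SE 0.19, adjusted p = 0.896). Control 4 was the lowest of the 8 mice for all of these genes. Coefficients of variation were 15.2%, 25.1% and 24.8% in the controls and 7.42%, 8.04% and 14.9% in the exposed mice. Without control 4 the log2 fold change of Atf4 turned to -0.13 (adjusted p = 0.640 by limma).

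Among the chaperones, Hspa5 lay at 11448, 7918, 10280 and 6619 in the controls and at 8497, 8161, 8775 and 7935 in the exposed mice (log2 change -0.09, SE 0.16, adjusted p = 0.837 by limma). All 4 exposed mice fell inside the control range, with a coefficient of variation of 24.2% in the controls and 4.43% in the exposed mice. Hsp90b1 lay at 13080, 9663, 10958 and 9314 in the controls and at 11073, 8992, 11986 and 9675 in the exposed mice (log2 change -0.04, SE 0.13). Pdia4 lay at 2529, 1918, 2370 and 1936 in the controls and at 2331, 1968, 2320 and 2121 in the exposed mice (log2 change 0.01, SE 0.12, adjusted p = 0.989). Controls 1 and 3 held more of all 3 chaperone mRNAs than controls 2 and 4. The same split of the controls held for Xbp1, Atf4, Eif2ak3 and Asns, and not for Ddit3 or Chac1, while Trib3 went the other way.

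Trib3 lay at 151, 185, 170 and 172 in the PEA controls and at 179, 218, 159 and 150 in the exposed mice (log2 change 0.05, SE 0.15). Chac1 was close to the limit of 10 that the filter on low values used, at 17.9, 15.9, 23.9 and 22.3 in the controls and at 28.4, 27.5, 23.3 and 18.0 in the exposed mice (log2 change 0.26, SE 0.26, adjusted p = 0.679 by limma). Asns lay at 1246, 779, 1377 and 810 in the controls and at 717, 722, 1018 and 1357 in the exposed mice (log2 change -0.15, SE 0.25). The wide spread of Asns, with coefficients of variation of 28.8% and 31.8%, was thus seen in both experiments. Atf5 ranged from 1630 to 2283 in the controls and from 1640 to 2002 in the exposed mice (log2 change -0.14, SE 0.13, adjusted p = 0.647).

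**Figure D2:**
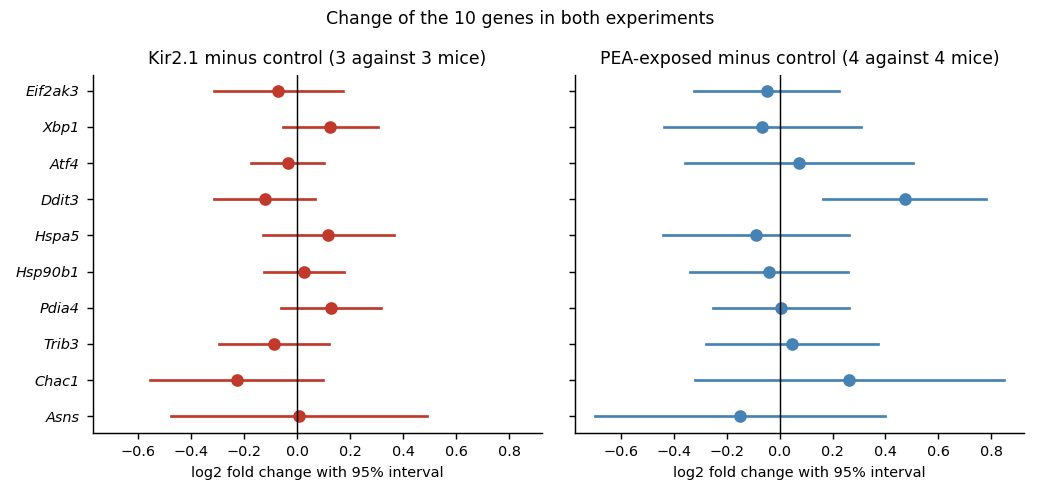
Log2 fold change of each member (points) with its 95% interval by limma (lines), for Kir2.1 minus control (left, 3 against 3 mice) and PEA-exposed minus control (right, 4 against 4 mice). Ddit3 in the PEA experiment (0.47, interval 0.16 to 0.78) is the member whose interval leaves out 0.

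Mature sensory neuron markers summed to 33073 to 37275 in the PEA controls and 31799 to 38000 in the exposed mice, with 1 of 10 markers higher and 1 lower at an unadjusted p under 0.05. Secretory gland markers, whose cells carry a large ER, summed to 245424, 171702, 305696 and 139059 in controls 1 to 4 and to 132114, 174436, 262011 and 195080 in exposed mice 1 to 4. Of the 10 gland markers, 2 were higher at an unadjusted p under 0.05, against 15.0% of all genes in either direction. The part of these levels in the members' values was not tested.

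The wider pathway was followed through 8 lists with 160 genes, the members included. In the Kir2.1 experiment 0 of 160 genes tested passed an adjusted p of 0.05 by limma (the smallest was 0.232), and at an unadjusted p under 0.05, 6 genes were higher and 2 lower (5.0%, against 11.1% of all genes tested). The stress sensors and eIF2alpha kinases (7 genes, median log2 fold change -0.06) had 1 such gene, Eif2ak2, the kinase PKR that senses double-stranded RNA (0.54, SE 0.19). Among 17 genes of eIF2alpha control and transcription (median -0.02), Cebpb, a transcription factor, was higher (0.29, SE 0.10) and Ppp1r15a, the GADD34 subunit that directs the phosphatase to eIF2alpha, was lower. Ppp1r15a had a mean of 3605 ± 227 in the controls and 2947 ± 173 in the Kir2.1 mice (n = 3 each), with no overlap (log2 change -0.29, SE 0.08, adjusted p = 0.232 by limma). It had the smallest p of the 160 genes.

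Of 26 ER chaperones and folding enzymes (median 0.04), Dnajc10, an ER reductase, and Txndc5, a disulfide isomerase, were past this limit on the higher side, with log2 changes of 0.20 (SE 0.07) and 0.16 (SE 0.07). Of 20 genes of ER-associated degradation (median 0.03), this was so of Ube2g2, a ubiquitin-conjugating enzyme (0.21, SE 0.07). None of 27 genes of ER translocation and transport (median 0.01) passed this limit, and Ostc had the smallest p (log2 change 0.14, SE 0.08). Among 29 ATF4 targets (median -0.09), 9 estimates were above 0 and 20 below, against 10148 above and 9659 below over all genes tested. The ATF4 target past the limit was Nupr1, a stress-induced chromatin protein (0.35, SE 0.15). None of 18 cytosolic aminoacyl-tRNA synthetases (median -0.03) passed it, with Gars nearest (-0.14, SE 0.07). Of 16 cytosolic heat shock genes (median 0.06), Hspa8, the constitutive HSC70, was lower (-0.41, SE 0.15).

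In the PEA experiment 0 of 158 genes tested passed an adjusted p of 0.05 (the smallest was 0.141). At an unadjusted p under 0.05, 13 were higher and 6 lower (12.0%, against 15.0% of all genes tested). The ATF4 targets held the largest share of the 8 lists past this limit, with 5 of 27 higher and 1 lower, a median log2 fold change of 0.13, and 18 estimates above 0 and 9 below. Over all genes tested, 8061 estimates were above 0 and 9261 below, and the list was not tested against them. Shmt2, the mitochondrial serine hydroxymethyltransferase, had a mean of 92.5 ± 12.6 in the controls and 140 ± 20.5 in the exposed mice (n = 4 each), with no overlap (log2 change 0.59, SE 0.16, adjusted p = 0.151 by limma). Slc6a9, a glycine transporter, had the largest estimate (0.95, SE 0.38). Slc7a3, a transporter of cationic amino acids (0.59, SE 0.20), and Eif4ebp1, a brake on cap-dependent translation (0.45, SE 0.16), were also higher. Slc6a9 and Slc7a3 overlapped between the groups, and Eif4ebp1 did not. Asns, Trib3 and Chac1, the members in this list, are not among the genes past the limit.

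Of 27 genes of ER translocation and transport, 2 were higher and 3 lower at an unadjusted p under 0.05 in exposed mice. Their median was -0.11, with 10 estimates above 0 and 17 below, against 8061 above and 9261 below over all genes tested. Srpr, the alpha subunit of the receptor for the signal recognition particle (SRP), had a mean of 1910 ± 325 in the controls and 1420 ± 152 in the exposed mice (n = 4 each), with no overlap (log2 change -0.42, SE 0.13, adjusted p = 0.199 by limma). Srp72, a subunit of the particle itself (-0.36, SE 0.12), and Sec63, a partner of the translocation channel (-0.34, SE 0.12), were also lower, and Dad1, a subunit of the oligosaccharyltransferase, was higher (0.37, SE 0.13). None of 26 chaperones passed the limit (median -0.0016), with Fkbp11 nearest (0.43, SE 0.21). Of 20 degradation genes (median 0.02), Edem2, which takes part in mannose trimming, was higher (0.23, SE 0.10) and Faf2 was lower (-0.29, SE 0.11). Of 7 sensors and kinases (median -0.05), Atf6b was higher (0.72, SE 0.28), and of 17 genes of eIF2alpha control and transcription (median 0.07), Ddit3 was the gene past the limit. Sars, the seryl-tRNA synthetase, was higher without overlap (0.33, SE 0.09, adjusted p = 0.154) among 18 synthetases (median -0.01). Of 16 heat shock genes (median 0.01), Cryab, the small heat shock protein alpha-B-crystallin (0.69, SE 0.18), and Hsf1, the heat shock factor (0.38, SE 0.16), were higher and Dnaja1, a co-chaperone of HSP70, was lower (-0.24, SE 0.10).

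**Figure D3:**
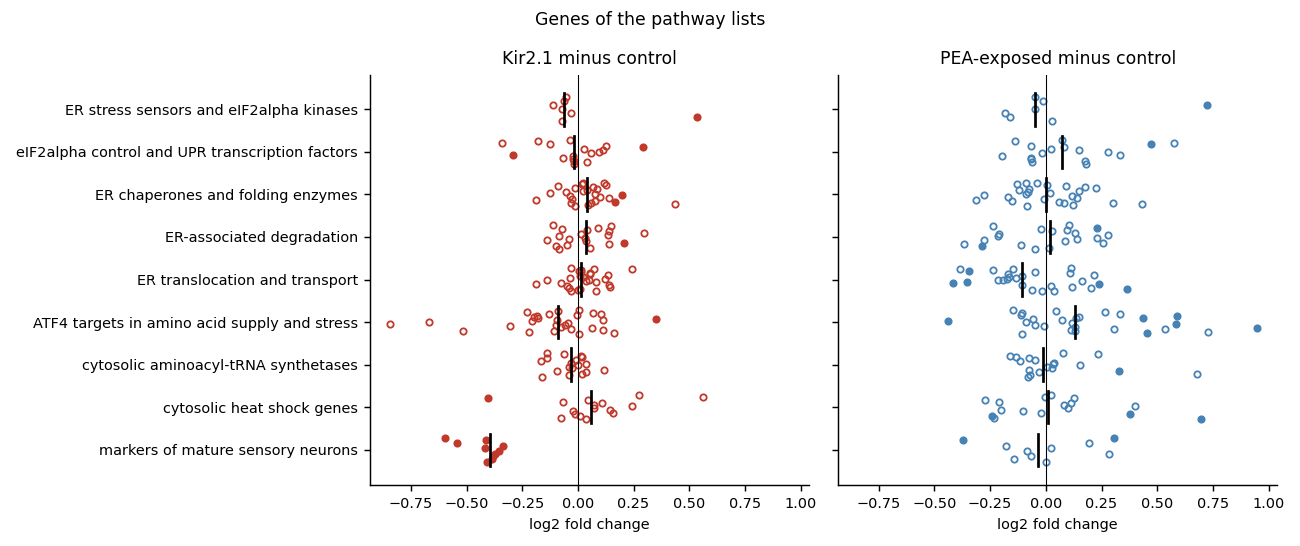
Log2 fold change of every gene tested in the 8 pathway lists and in the list of mature sensory neuron markers, for Kir2.1 minus control (left) and PEA-exposed minus control (right); filled points have an unadjusted p under 0.05 by limma, open points do not, and black bars are list medians. The 10 mature neuron markers lie left of 0 in the Kir2.1 experiment (median -0.40), while the medians of the pathway lists lie between -0.11 and 0.13 in both experiments.

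Whether the members varied together between mice was asked with the deviations of each mouse from its group mean on the log2 scale, for 10 pairs in each experiment. Among mice of the PEA experiment the 3 chaperones and Xbp1 went together. Hsp90b1 and Pdia4 had Pearson's r = 0.93 and Spearman's rho = 0.81 over 8 mice (exact permutation within groups, p = 0.00694 and 0.0174, adjusted p = 0.139 and 0.185 over 20 relations). Without the 2 mice farthest from the median of Hsp90b1, r was 0.94. The other 3 pairs of this kind, Xbp1 with Hspa5, Hspa5 with Pdia4 and Hspa5 with Hsp90b1, had r of 0.94, 0.87 and 0.80, with rho of 0.88, 0.93 and 0.79 and exact permutation p of 0.0469, 0.0382 and 0.0174 for r and 0.153, 0.0799 and 0.0278 for rho. Without the 2 farthest mice these r were 0.86, 0.85 and 0.62, and the adjusted p for r was between 0.174 and 0.188 for all 3. Asns and Trib3 went in opposite directions (r = -0.76, rho = -0.86, exact permutation p = 0.0451 and 0.0208, adjusted p = 0.188 and 0.185, and r = -0.80 without the 2 farthest mice). None of the 20 relations passed adjustment.

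Atf4 was not clearly related to its targets in either experiment. Its r in the PEA experiment was 0.44 with Asns, 0.04 with Trib3, -0.25 with Chac1 and 0.28 with Ddit3, and in the Kir2.1 experiment 0.27, 0.09, 0.15 and -0.03, with rho between -0.086 and 0.66 and exact permutation p for r between 0.363 and 0.927 (adjusted p between 0.907 and 0.927) over the 8 relations. The chaperone pairs of the PEA experiment did not recur among the 6 mice of the Kir2.1 experiment, where r was -0.21 for Hsp90b1 and Pdia4, -0.73 for Xbp1 and Hspa5, 0.53 for Hspa5 and Pdia4 and -0.65 for Hspa5 and Hsp90b1, with rho of -0.029, -0.77, 0.31 and -0.54. In that design the exact test cannot give a p below 0.0278, and the smallest adjusted p among its 10 relations was 0.556. Over all 45 pairs in both experiments, a wider set chosen after the values were seen, 0 of 90 relations passed adjustment. The pair with the smallest p in the Kir2.1 experiment was Ddit3 and Chac1 (r = 0.95, rho = 0.94, exact permutation p = 0.0278 for both, adjusted p = 0.450 and 0.531, and r = 0.83 without the 2 farthest mice). Farthest from 0 in that experiment was the r of Hspa5 and Atf4 (r = -0.98, rho = -0.94, exact permutation p = 0.0833 and 0.111, adjusted p = 0.450 and 0.583). Eif2ak3 and Asns in the PEA experiment had r = 0.90 and rho = 0.81 (exact permutation p = 0.00694 and 0.0295, adjusted p = 0.313 and 0.531, and r = 0.94 without the 2 farthest mice).

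**Figure D4:**
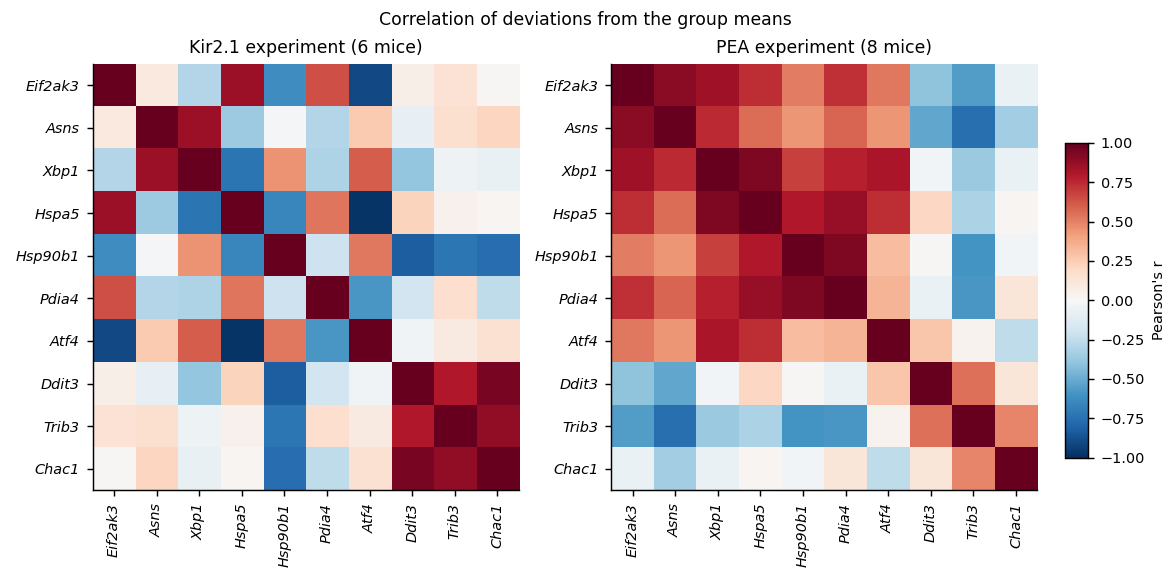
Pearson's r between the deviations of each pair of members from their group means, over 6 mice of the Kir2.1 experiment (left) and 8 mice of the PEA experiment (right); red is positive, blue negative. The block of Xbp1, Hspa5, Hsp90b1 and Pdia4 is red in the PEA experiment, as is the block of Ddit3, Trib3 and Chac1 in the Kir2.1 experiment. The latter block rests on few mice. Without the 2 mice farthest from the median of the first gene, r was 0.15 for Ddit3-Trib3, -0.11 for Trib3-Chac1 and 0.83 for Ddit3-Chac1. None of the relations in these blocks passed adjustment.

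Some members also went with cell type markers between mice of the PEA experiment. That experiment gave 30 of the 60 relations computed after the values were seen, and 6 of these 30 had an exact permutation p for r under 0.05. Xbp1 went with the summed gland markers (r = 0.91, rho = 0.95, exact permutation p = 0.00347 for both, adjusted p = 0.156 and 0.208, and r = 0.83 without the 2 farthest mice). This was not particular to Xbp1. With the gland markers r was also 0.78 for Eif2ak3 and Asns, 0.73 for Atf4 and Hspa5, 0.60 for Pdia4 and 0.55 for Hsp90b1. It was -0.31 for Ddit3, -0.41 for Trib3 and -0.11 for Chac1. Asns went against the summed immature sensory neuron markers (r = -0.90, rho = -0.81, exact permutation p = 0.0226 and 0.0365, adjusted p = 0.271 and 0.438, and r = -0.87 without the 2 farthest mice). Trib3 went with the same markers (r = 0.78, rho = 0.81, exact permutation p = 0.00521 and 0.0139, adjusted p = 0.156 and 0.347, and r = 0.68 without the 2 farthest mice). Eif2ak3 went against them (r = -0.93, rho = -0.88, exact permutation p = 0.0174 and 0.0347, adjusted p = 0.271 and 0.438, and r = -0.95 without the 2 farthest mice). With the summed mature sensory neuron markers, Pdia4 had r = -0.80 and rho = -0.76 (exact permutation p = 0.0191 and 0.0174, adjusted p = 0.271 and 0.347, and r = -0.73 without the 2 farthest mice). Trib3 had r = 0.80 and rho = 0.60 with these (exact permutation p = 0.0469 and 0.198, adjusted p = 0.351 and 0.483, and r = 0.54 without the 2 farthest mice). None of the 60 relations passed adjustment, and in the Kir2.1 experiment none had an exact permutation p under 0.05.

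The control mice of the experiments differed in the balance between members. Values were expressed as parts per 1000000 of the summed normalized counts of each mouse and are set side by side with no test, since the tables were normalized separately and library type, read length, genotype, strain and the cells sampled cannot be told apart. Cell type markers differed between the same groups, with a median log2 ratio of Kir2.1 over PEA controls of -2.15 for 10 secretory gland markers, 0.69 for 10 mature sensory neuron markers and -0.51 for 7 ciliated cell markers, against 0.06 for all genes. Their part in the values that follow was not tested. Chac1 held 6.72 parts in the Kir2.1 controls and 1.66 in the PEA controls, a ratio of 4.04. Ddit3 held 38.4 and 14.5 parts, a ratio of 2.64, and Trib3 held 34.0 and 14.2, a ratio of 2.40. The targets of the PERK arm other than Asns thus took a larger share in the Kir2.1 controls. The ranges of the control groups did not overlap for Chac1, Ddit3 and Trib3, nor for Hsp90b1, Pdia4, Xbp1 and Asns. The share of all genes without overlap was not computed, so this sets no member apart. Atf4 itself held 177 and 172 parts, and its ranges overlapped. The chaperones and Xbp1 lay on the other side, with 561 against 892 parts for Hsp90b1, 105 against 182 for Pdia4 and 112 against 209 for Xbp1. Hspa5 (526 and 751) and Eif2ak3 (43.5 and 51.6) overlapped in range, and Asns held 43.2 against 87.1 parts. Nup62 and Il4i1 overlap Atf5 on the other strand, and the part of their reads in its value in the unstranded Kir2.1 libraries was not tested. Atf5 held 1652 parts in the Kir2.1 controls and 163 in the PEA controls. Its log2 ratio of 3.34 was higher than that of 98.6% of the 16702 genes with a mean of at least 10 in both tables, among which the central 90% lay between -1.90 and 2.41. The log2 ratios of the 10 members, from -1.01 for Asns to 2.01 for Chac1, lay inside that central range.

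**Figure D5:**
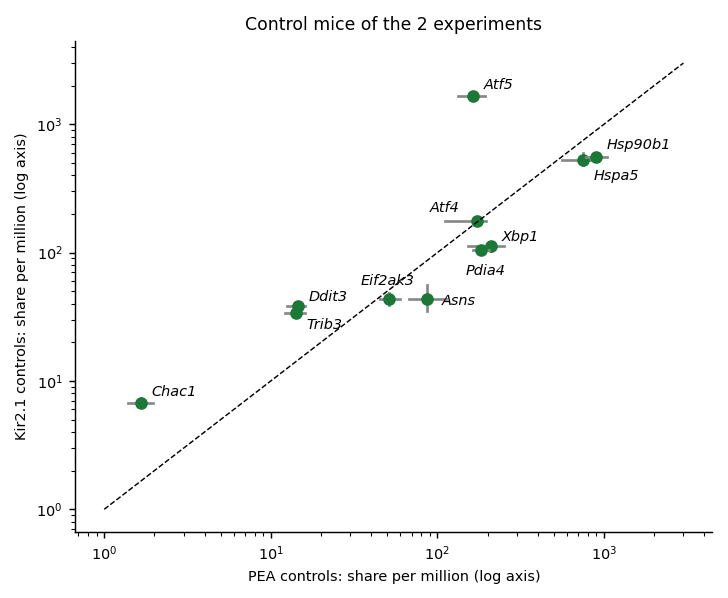
Parts per 1000000 of the summed normalized counts for the 10 members and Atf5 in the control mice, with PEA controls on the horizontal and Kir2.1 controls on the vertical logarithmic axis; points are means, bars run from the lowest to the highest mouse, and the dashed line marks equal shares. Chac1, Ddit3, Trib3 and Atf5 lie above the line, Atf4 on it, and the other 6 members below it.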

How the data were processed

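RNA of olfactory epithelia was sequenced in 14 mice. Per the paper's methods, Kir2.1 libraries were poly-A selected and read as unstranded 40 bp reads, and PEA libraries were depleted of ribosomal RNA and read as stranded 150 bp reads. The authors estimated transcript abundance with Salmon 1.3.0 on GRCm38, using a reverse-strand setting for all libraries, summed it per gene and scaled it with DESeq2 1.30.0. What was deposited is thus a normalized signal for each gene rather than whole reads. Count-based tests were left out for that reason, and depth and its counting error are unknown. Whether the strand setting left out reads of the unstranded libraries cannot be checked.

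The experiments were fitted separately in limma 3.58.1 (R 4.3.3) on log2(value + 1), for genes with a mean of at least 10, with a mean-variance trend, 2-sided p-values, Benjamini-Hochberg adjustment over all genes tested and a threshold of 0.05. Intervals are 95% intervals of that fit. Exact permutation tests were 2-sided and permuted mice between groups, or within groups for correlations. P-values cover the spread between individual mice and treat them as independent. The labels give no litter or cage. In the paper's odor exposure the vial stood in a home cage with mother and pups, so exposed mice may have shared a cage. Methods were tested on simulated data. Lengths and positions came from GENCODE vM21 and promoter windows from RefSeq (10 of 10 members matched). The rest used scipy 1.17.1, pandas 2.3.3, numpy 2.4.6 and matplotlib 3.10.9 under Python 3.11.15.

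The members, 8 pathway lists and 12 marker lists were chosen with earlier results of these data known. Named genes were all members, Atf5, and from each pathway list and experiment at most 4 genes with the largest change among those at an unadjusted p under 0.05, or else the gene with the smallest p. Alternatives were pseudocounts of 0.5 and 5, a filter at 50 or none, robust limma or limma with no trend, quantile normalization, median centring, vomeronasal and Xist covariates, a replicate block, each mouse left out and a threshold of 0.10. Alternatives chosen after seeing the data were a gland marker covariate, leaving out libraries with high vomeronasal RNA, the wider sets of correlations and the shares in the control groups.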

Additional observations from a re-analysis of the deposited data

How the results depend on the processing

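The counts of 0 members and 0 pathway genes at an adjusted p under 0.05 held in both experiments under every alternative run. The smallest adjusted p of a member was 0.366 in the Kir2.1 experiment (Hspa5 without control 3) and 0.151 in the PEA experiment (Atf4 without the libraries with high vomeronasal RNA). Of 190 member estimates under an alternative in the Kir2.1 experiment, 12 changed sign, and of 209 in the PEA experiment, 30 did. None of these was past the threshold, and the cause was not tested.

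In the Kir2.1 experiment, quantile normalization turned Hsp90b1 to -0.029 and Asns to -0.0021, and median centring turned them to -0.015 and -0.034. Asns was -0.077 with the vomeronasal covariate, -0.022 with the Xist covariate, -0.18 with the gland marker covariate and -0.074 without control 1, the library with high vomeronasal RNA. With each mouse left out in turn, log2 fold changes ranged from -0.17 to 0.20 for Asns and -0.15 to 0.019 for Eif2ak3. In the PEA experiment, quantile normalization turned Hspa5 to 0.016, Xbp1 to 0.020, Hsp90b1 to 0.017 and Trib3 to -0.018, and median centring turned Pdia4 to -0.044 and Trib3 to -0.0026. The vomeronasal covariate turned Hspa5 to 0.031, Xbp1 to 0.0016 and Hsp90b1 to 0.046, the Xist covariate turned Hsp90b1 to 0.0027, and the gland marker covariate turned Xbp1 to 0.017. Leaving out the 4 PEA libraries with high vomeronasal RNA kept 1 control and 3 exposed mice, with the lone control assumed to vary like the others. Hspa5 was then 0.32, Xbp1 0.42, Eif2ak3 0.16, Hsp90b1 0.12 and Asns 0.30, and Atf4 was 0.78, so that 2 members, Xbp1 and Atf4, had an unadjusted p under 0.05 and Ddit3 did not (0.073). With each mouse left out in turn, log2 fold changes ranged from -0.23 to 0.035 for Hspa5, -0.21 to 0.040 for Xbp1, -0.11 to 0.059 for Hsp90b1, -0.059 to 0.12 for Trib3, -0.055 to 0.078 for Pdia4, -0.11 to 0.037 for Eif2ak3 and -0.13 to 0.17 for Atf4.

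Correlations moved more. With each mouse left out, r in the Kir2.1 experiment ranged from -0.84 to 0.89 for Hspa5-Pdia4, -0.71 to 0.41 for Hsp90b1-Pdia4, -0.47 to 0.61 for Atf4-Asns, -0.39 to 0.53 for Atf4-Trib3, -0.22 to 0.39 for Atf4-Chac1, -0.21 to 0.19 for Atf4-Ddit3, -0.72 to 0.72 for Asns-Trib3 and -0.40 to 0.88 for Asns-Chac1. In the PEA experiment it ranged from -0.41 to 0.23 for Atf4-Trib3 and -0.72 to 0.11 for Asns-Chac1. Same-numbered mice showed little shared deviation (r of deviations -0.06, -0.01 and 0.16, and 0.13, -0.02, -0.05 and 0.10). A low r between single mice cannot exclude pairing by litter or batch, and the paper describes the Kir2.1 controls as littermates. With the replicate block, 0 members passed the adjusted test in either experiment, and Ddit3 in the PEA experiment kept an adjusted p of 0.230.

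The number of pathway genes at an unadjusted p under 0.05, 8 in the Kir2.1 experiment, was 4 with median centring, 4 with the gland marker covariate and 3 without Kir2.1 mouse 1. In the other experiment, 19 became 12 with the vomeronasal covariate, 12 without exposed mouse 2, 30 without control 4 and 35 without the 4 libraries with high vomeronasal RNA. At a limit of 0.10 the counts were 14 and 38.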

Other observations

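The shares of the pathway lists in the control mice differed between the experiments in the same descriptive sense as those of the members, with no test and with library type, read length, genotype, strain and the cells sampled not told apart. Over 16702 genes the median log2 ratio of Kir2.1 over PEA controls was 0.06, and 8654 genes were above 0. ATF4 targets had a median log2 ratio of 1.00, and 21 of 27 genes were above 0. Slc7a5, a transporter of large neutral amino acids, held 274 parts per 1000000 of the summed normalized counts in the Kir2.1 controls and 38.6 in the PEA controls, and Slc7a11, the cystine transporter, held 5.29 and 21.7. Both were picked after their values were seen, as the ends of that list. Cytosolic heat shock genes had a median log2 ratio of 0.87, with 12 of 16 above 0, and aminoacyl-tRNA synthetases one of 0.42, with 13 of 18 above 0. The lists of ER chaperones (0.05 over 24 genes) and ER translocation (-0.12) had medians near that of all genes.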
